A study of Mus musculus with 18 samples.

Results

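The 4 mature products of the miR-223 and miR-142a hairpins, miR-223-3p, miR-223-5p, miR-142a-3p and miR-142a-5p, were followed in dendritic cells (DC) and in the extracellular vesicles (EV) that these cells released. They were taken by name from the 2045 miRNA rows of the count table, and each had a single row with reads in all 18 libraries. The libraries hold small RNA from cultures of mouse bone marrow, taken from adult C57bl/6 mice and differentiated in medium with GM-CSF supplied by a producer cell line. LPS-DC had received lipopolysaccharide, a bacterial Toll-like receptor 4 ligand, for 24 h, VitD3-DC had received 10 nM of the hormone 1α,25-dihydroxyvitamin D3 over 12 days, and control-DC were untreated. The cells were then recovered and cultured further in medium from which most, but not all, EV had been removed. LPS-EV, VitD3-EV and control-EV were purified from the supernatant of this further culture by differential centrifugation and a sucrose gradient. Each of the 6 groups had 3 biological replicates made on different days. The replicate numbers follow the order of the sample numbers in the library titles. Libraries of the same replicate number were taken to come from the same experiment day. The model is a mixed primary culture, and the groups differ in the length of treatment as well as in the agent. A lower share of cells carrying a miRNA and less of it per cell cannot be told apart in such bulk libraries.

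A miRNA gene is transcribed as a hairpin, from which the enzyme Dicer frees a short duplex. Either strand of the duplex, named 5p or 3p after its arm, can be loaded into an Argonaute protein, and the bases of its seed then select target messenger RNAs. miR-223 is a miRNA of myeloid cells, known as a brake on granulocyte production and activation in mice, and its 3p strand is the form usually described as functional. miR-142 is expressed throughout the blood lineages, both of its strands have known targets, and mice without it have defects in dendritic cell development.

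The mature sequences show which strand each row counts. They are from RefSeq on GRCm38.p6, written 5′ to 3′ with the seed, bases 2 to 8, in capitals.

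miR-223-5p: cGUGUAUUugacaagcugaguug
miR-223-3p: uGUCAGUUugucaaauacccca
miR-142a-5p: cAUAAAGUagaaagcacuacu
miR-142a-3p: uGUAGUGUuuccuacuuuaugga

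The 4 seeds differ from each other, and 0 of the other mature miRNAs among the 1679 in the RefSeq table carry any of them. All 4 names matched an entry. The hairpins show how the strands lie within each precursor, with the mature strands in capitals, the 5p strand first. Mir223 lies at chrX:96242817-96242926 on the plus strand, inside an exon of the noncoding gene F630028O10Rik of the same strand in GENCODE. Mir142 lies at chr11:87756864-87756927 on the plus strand, within the noncoding host gene Mir142hg and outside its annotated exons.

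miR-223 hairpin: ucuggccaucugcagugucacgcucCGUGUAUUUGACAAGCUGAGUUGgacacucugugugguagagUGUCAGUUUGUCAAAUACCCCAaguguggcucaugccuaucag
miR-142a hairpin: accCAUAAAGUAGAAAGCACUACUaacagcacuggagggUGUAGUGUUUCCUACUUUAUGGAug

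The miR-223 strands are separated by 19 bases and the miR-142a strands by 15 bases. Mir142b is annotated antisense across Mir142, and its mature product is the reverse complement of 20 bases of miR-142a-3p, from base 4 to base 23. The authors counted reads by strand, and miR-142b had 0 reads in each of the 18 libraries. With a floor of 3 counts, this allows up to 0.009% of the miRNA reads in the shallowest EV library and up to 0.000292% in the shallowest DC library.

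The EV libraries held 33337 to 329240 miRNA reads and the DC libraries 1025913 to 4247919, so that values in cells rest on more reads. The authors also made the EV libraries from much less RNA than the DC libraries. In every comparison of EV with DC, the amount of input RNA and the compartment cannot be told apart. The shallowest library was LPS-EV replicate 2, with 33337 miRNA reads, and it stood apart from the other LPS-EV libraries in several values given here. Replicate 3 differed from the other days in every group: the 6 muscle miRNAs of the marker list, all detected, made up 6.68% to 7.42% of the miRNA reads in its EV libraries and 0.362% to 0.75% in its DC libraries, against at most 0.0202% in replicates 1 and 2. In replicate 3 it was 6.68% in LPS-EV, 7.42% in VitD3-EV and 7.08% in control-EV, and 0.75% in LPS-DC, 0.362% in VitD3-DC and 0.676% in control-DC. The replicate number was a term of every fit. Replicate 3 is labelled sequencing run 2 and the other replicates run 1, except that VitD3-DC replicate 2 is labelled run 2 as well. The fits have no term for the run. Values without VitD3-DC replicate 2 are given for VitD3-DC against control-DC, and for its other comparisons where they change the call of a strand. Of the other marker lists, all with reads for each member, the 2 endothelial miRNAs summed to 0.018% to 0.044% of the miRNA reads in LPS-EV, 0.0425% to 0.126% in VitD3-EV and 0.00756% to 0.104% in control-EV, against at most 0.00306% in DC. The 5 stromal miRNAs summed to 0.00288% to 0.0764% in LPS-EV, 0.0165% to 0.153% in VitD3-EV and 0.00126% to 0.0750% in control-EV, against at most 0.00541% in DC. The 4 erythroid miRNAs reached 0.039% in EV and 0.00221% in DC, and the 6 epithelial miRNAs 0.084% in EV and 0.0291% in DC. The single miRNAs taken for lymphocytes (miR-150-5p), liver (miR-122-5p) and neurons (miR-124-3p) reached 8.29e-05%, 0.0191% and 0.000959% in any library. The part of these lists and of the run in the results was not tested, beyond the values without replicate 3 or without VitD3-DC replicate 2 that are given where they change a call.

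miR-142a was the more abundant hairpin in all 18 libraries. miR-142a-5p ranked from 12 to 20 among the miRNAs of the EV libraries and from 16 to 30 in the DC libraries, and made up a median of 0.423% of the miRNA reads in EV and 0.258% in DC. miR-142a-3p followed with medians of 0.176% in EV and 0.178% in DC. miR-223-5p had medians of 0.0816% in EV and 0.0803% in DC. miR-223-3p was the rarest of the 4, with medians of 0.0142% in EV and 0.0158% in DC, and rested on 6 to 40 reads in an EV library against 121 to 437 reads in a DC library. Levels are given from here on as CPM, the reads of a strand scaled to the same miRNA total in every library, with TMM factors that even out differences in composition, computed within EV or within DC unless stated otherwise. The reads of a strand also depend on how well it is ligated and amplified, so the order of strands is an order of reads.

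**Figure D1:**
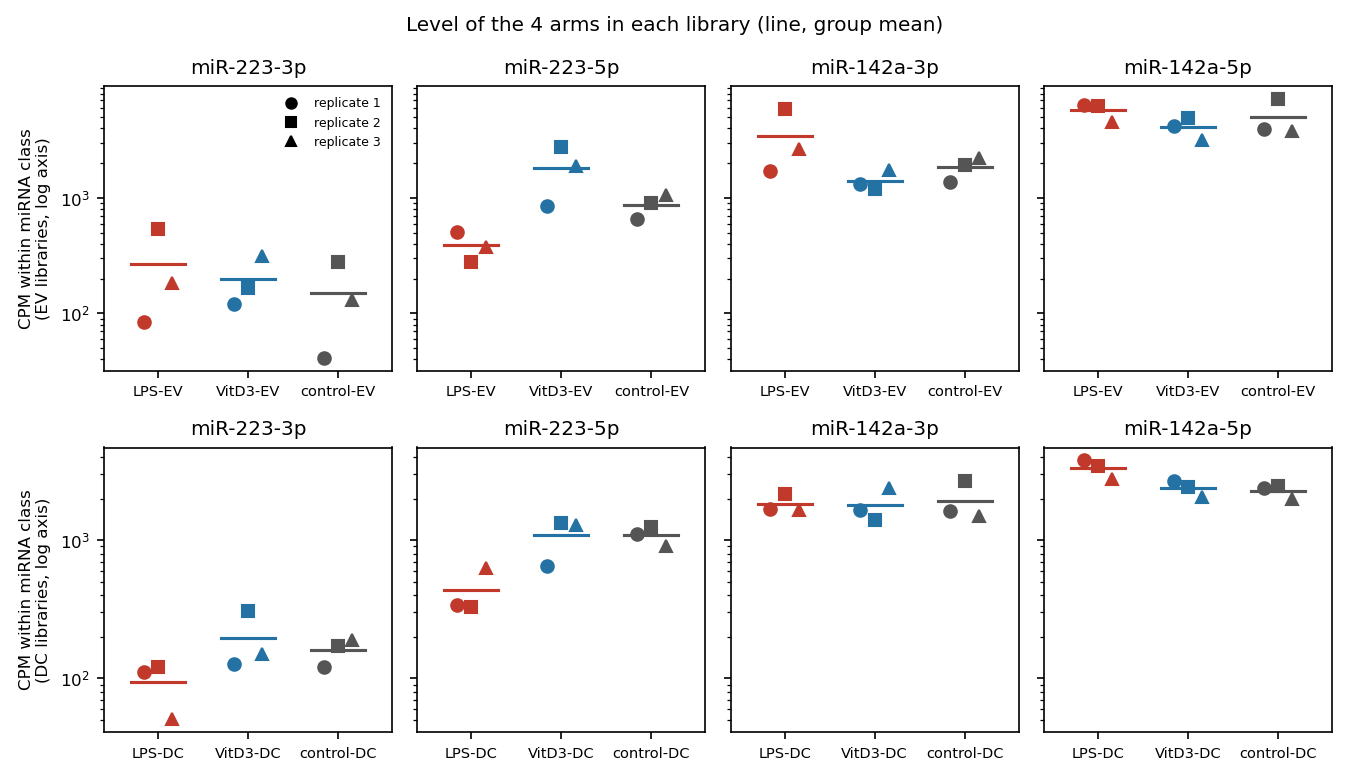
Level of each strand in every library, in CPM on a log axis, for the EV libraries (upper row) and the DC libraries (lower row); symbols are replicate numbers and lines are group means. The 3 miR-223-5p values of LPS-EV, 278 to 511.5 CPM, and of LPS-DC, 330 to 625 CPM, lie below the VitD3 and control values of the same row.

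The clearest difference among the 4 strands was a lower miR-223-5p in LPS-EV than in VitD3-EV. miR-223-5p had 511.5 CPM in replicate 1, 278 CPM in replicate 2 and 379 CPM in replicate 3 of LPS-EV, against 851, 2738 and 1896 CPM in VitD3-EV and 652, 903 and 1056 CPM in control-EV. All 3 LPS-EV libraries lay below all libraries of the other 2 EV groups, whereas VitD3-EV and control-EV overlapped through replicate 1 of VitD3-EV. Against VitD3-EV, miR-223-5p fell by 1.99 on the log2 scale in LPS-EV (SE 0.35, n = 3 libraries each), which is 3.97-fold lower, with an FDR of 1.09e-06. The FDR is the Benjamini-Hochberg adjusted p of edgeR's quasi-likelihood test over all 281 miRNA rows tested in EV, and a row was called changed when it was below 0.05. The table gives some mature miRNAs a row for each genomic copy, so that the 281 rows carry 249 names. Within the experiment days the difference was -0.73, -3.30 and -2.32. The call held under all 21 alternative settings, with FDR values between 1.52e-07 and 0.0314, and without LPS-EV replicate 2, where only 14 reads were counted, the difference was -1.71.

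In the same comparison miR-142a-3p was higher in LPS-EV, with the difference carried largely by a single day. It had 1718, 5873 and 2647 CPM in replicates 1, 2 and 3 of LPS-EV, 1313, 1189 and 1733 CPM in VitD3-EV, and 1374, 1935 and 2217 CPM in control-EV. Replicate 2 of LPS-EV was the highest of the 9 libraries, and replicate 1 of LPS-EV lay just below the highest VitD3-EV library, so the groups overlapped. miR-142a-3p rose by 1.08 on the log2 scale in LPS-EV against VitD3-EV (SE 0.30, n = 3 each, FDR = 0.00546 by edgeR). The differences within days were 0.39, 2.30 and 0.61. The call was lost in 5 of 21 settings. The difference was 0.42 (edgeR FDR = 0.284) without replicate 2, 0.49 (edgeR FDR = 0.245) without LPS-EV replicate 2 and 0.68 (edgeR FDR = 0.188) without VitD3-EV replicate 2, and it also missed the threshold without VitD3-EV replicate 3 (1.17, edgeR FDR = 0.0581). Without the replicate block it was 1.26 (edgeR FDR = 0.179).

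The other 2 strands were not called between LPS-EV and VitD3-EV. miR-142a-5p, the most abundant strand, had 6354, 6249.7 and 4582 CPM in LPS-EV and 4191, 4950.2 and 3152 CPM in VitD3-EV. It was higher in LPS-EV on all 3 days, but the groups overlapped and the difference of 0.50 (SE 0.26) had an edgeR FDR of 0.241. Scaling by the miRNA total gave 0.86 (edgeR FDR = 0.0125) and TMM over all RNA classes gave 0.84 (edgeR FDR = 0.0491). miR-223-3p had 84.5, 536 and 183 CPM in LPS-EV against 122, 166 and 314 CPM in VitD3-EV, and its differences within days, -0.53, 1.69 and -0.78, did not share a direction. Of the 281 rows tested, 41 were called between LPS-EV and VitD3-EV, or 14.6%, which are 32 mature miRNAs of 249, and beside these 2 of the 4 strands were called.

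**Figure D2:**
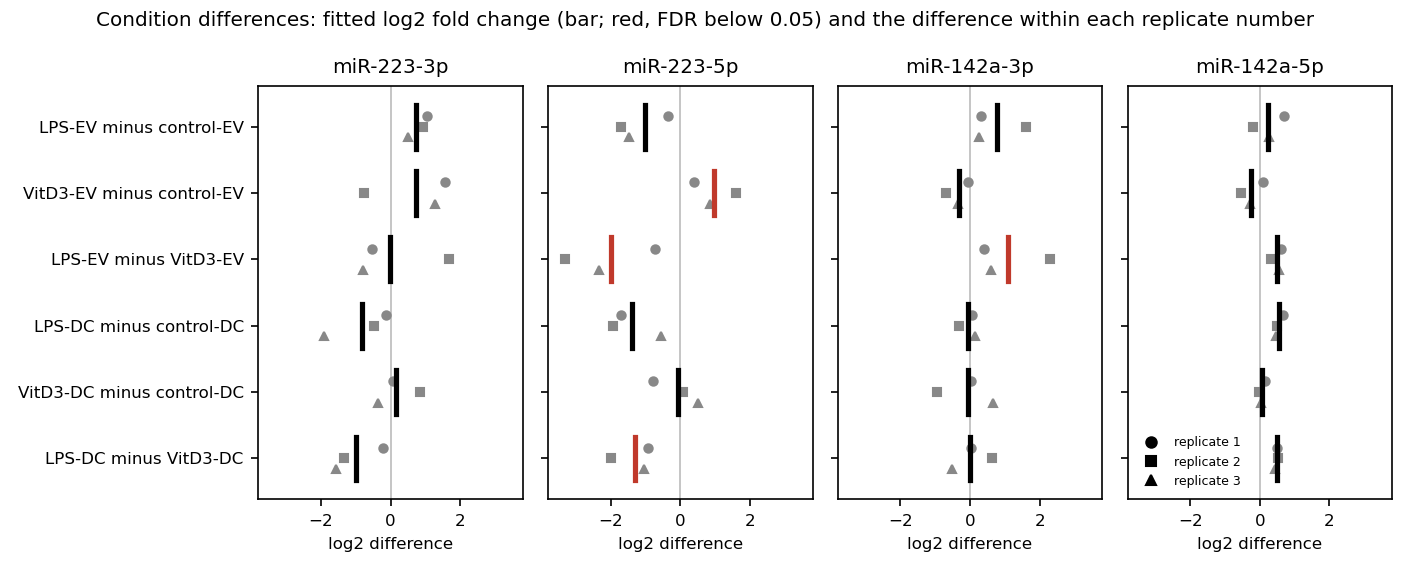
Log2 difference of each strand in the 6 comparisons of conditions, with the fitted fold change as a bar (red where the FDR was below 0.05) and the difference within each replicate number as grey symbols. Red bars stand at -1.99, 0.98 and -1.31 for miR-223-5p and at 1.08 for miR-142a-3p, and the symbols of miR-223-3p spread over both sides of 0 in 3 of the comparisons.

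Between LPS-EV and control-EV none of the 4 strands passed the threshold. From the values above, miR-223-5p was lower in LPS-EV on all 3 days, with differences of -0.35, -1.70 and -1.48, and the groups did not overlap. Its fitted difference was -1.01 (SE 0.33, n = 3 each), with an unadjusted p of 0.00294 and an edgeR FDR of 0.103. miR-142a-3p was higher in LPS-EV on all 3 days, with a fitted difference of 0.77 (SE 0.29, edgeR FDR = 0.234) and overlapping groups. miR-223-3p and miR-142a-5p had differences of 0.72 (edgeR FDR = 0.683) and 0.24 (edgeR FDR = 0.915). In this comparison 4 of 281 rows were called, or 1.42%, which are 3 mature miRNAs, and 0 of the 4 strands were called by edgeR's quasi-likelihood test, its likelihood ratio test or DESeq2, while 2 had an unadjusted p below 0.05. Leaving out LPS-EV replicate 1 brought miR-223-5p to -1.62 (edgeR FDR = 0.0132), and leaving out replicate 2 brought it to -0.88 (edgeR FDR = 0.0364). TMM over all RNA classes brought miR-142a-3p to 1.16 (edgeR FDR = 0.0476), also past the threshold.

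VitD3-EV had more miR-223-5p than control-EV, near the threshold. The difference was 0.98 on the log2 scale (SE 0.33, n = 3 each, FDR = 0.0443 by edgeR), or 1.98-fold, and was positive on all 3 days at 0.39, 1.60 and 0.84. The 851 CPM of VitD3-EV replicate 1 lay within the control-EV range. Over the 21 settings the FDR ran from 0.00161 to 0.512. The call was lost in 16 of them, among them the likelihood ratio test (FDR = 0.062), DESeq2 (FDR = 0.0875) and scaling by the miRNA total (difference 0.58, edgeR FDR = 0.431). Without the replicate block the edgeR FDR was 0.497, and without VitD3-EV replicate 2 the difference was 0.57 (edgeR FDR = 0.512). It was 1.24 without replicate 1, 0.69 without replicate 2 and 1.15 without replicate 3, with edgeR FDR values of 0.15, 0.0742 and 0.256. Of the 281 rows, 20 were called in this comparison, or 7.12%, which are 15 mature miRNAs, and miR-223-5p was the only one of the 4 strands among them. The other 3 had differences of 0.74 for miR-223-3p, -0.31 for miR-142a-3p and -0.26 for miR-142a-5p, with edgeR FDR values of 0.506 to 0.817. The comparisons of LPS-EV and of VitD3-EV with control-EV share the 3 control-EV libraries.

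In the cells, miR-223-5p was again the strand with the largest differences, and it was lower in LPS-DC. It had 342, 330 and 625 CPM in replicates 1, 2 and 3 of LPS-DC, 649.7 and 1321 and 1295 CPM in VitD3-DC, and 1108, 1251 and 909 CPM in control-DC. All 3 LPS-DC libraries lay below all others, although replicate 3 of LPS-DC came close to replicate 1 of VitD3-DC. Against VitD3-DC, miR-223-5p fell by 1.31 on the log2 scale in LPS-DC (SE 0.33, n = 3 each, FDR = 0.0295 by edgeR), or 2.49-fold. Against control-DC the difference was -1.39 (SE 0.33) with an edgeR FDR of 0.0513. All 3 days had lower values in LPS-DC in each comparison. The call against VitD3-DC was lost in 13 of 21 settings, including scaling by the miRNA total (-0.70, edgeR FDR = 0.21) and the fit without the replicate block (edgeR FDR = 0.0983), and it was lost without each of replicates 1, 2 and 3 (-1.34, -1.0004 and -1.32, edgeR FDR = 0.22, 0.0755 and 0.132). Leaving out single libraries took the FDR over the threshold for LPS-DC replicates 1 and 2, VitD3-DC replicates 2 and 3 and control-DC replicate 1, with differences of -0.93 at the smallest. Without VitD3-DC replicate 2, whose labelled run differs, it was -1.13 (edgeR FDR = 0.101). The comparison with control-DC passed the threshold in 5 of 21 settings, among them the likelihood ratio test (FDR = 0.0151) and DESeq2 (-1.29, FDR = 0.014).

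The remaining strands in the cells were not called. miR-142a-5p had 3776, 3460 and 2788 CPM in LPS-DC, 2675, 2416 and 2054 CPM in VitD3-DC, and 2400.04, 2462 and 2002 CPM in control-DC. On this scale the LPS-DC libraries lay above all others and the differences between days were small, at 0.65, 0.49 and 0.48 against control-DC. The fitted differences of 0.54 (SE 0.25, edgeR FDR = 0.343) and 0.49 against VitD3-DC (SE 0.25, edgeR FDR = 0.277) missed the threshold. By share of the miRNA reads, LPS-DC replicate 3 (0.247%) lay below VitD3-DC replicate 1 (0.300%) and below control-DC replicates 1 (0.263%) and 2 (0.258%). The miR-142a-5p difference from VitD3-DC ran from 0.0024 to 1.10 over the 21 settings, and from 0.45 to 0.65 with replicates or libraries left out. miR-142a-3p had 1685, 2143 and 1664 CPM in LPS-DC, 1639.7 and 1388 and 2368 CPM in VitD3-DC, and 1620 and 2688 and 1496 CPM in control-DC. Its 3 groups overlapped, and its fitted differences lay between -0.07 and 0.01, with edgeR FDR values of 0.938 and above. miR-223-3p had 110.4, 122 and 50.3 CPM in LPS-DC, 127, 306 and 149 CPM in VitD3-DC, and 120.002, 170.4 and 190.1 CPM in control-DC. It was lower in LPS-DC on all 3 days in both comparisons, with fitted differences of -0.98 against VitD3-DC (SE 0.36, edgeR FDR = 0.116) and -0.82 against control-DC (SE 0.37, edgeR FDR = 0.343). For LPS-DC against control-DC, 4 of 456 rows were called, or 0.877%, and 0 of the 4 strands by edgeR's quasi-likelihood test, with 2 at an unadjusted p below 0.05 and 1 called by DESeq2. For LPS-DC against VitD3-DC, 32 of 456 rows were called, or 7.02%, which are 29 mature miRNAs, and 1 of the 4 strands. Without control-DC replicate 2, miR-223-3p passed the threshold in this comparison as well (-0.98, edgeR FDR = 0.0458). The 456 rows carry 420 names.

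Between VitD3-DC and control-DC no strand of either hairpin was called. The 4 fitted differences were 0.17 for miR-223-3p, -0.08 for miR-223-5p, -0.07 for miR-142a-3p and 0.05 for miR-142a-5p, with SE values of 0.25 to 0.36 and edgeR FDR values of 0.856 to 0.938. In this comparison 20 of 456 rows were called, or 4.39%, which are 19 mature miRNAs, and 0 of the 4 strands by any of edgeR's quasi-likelihood test, its likelihood ratio test and DESeq2, with 0 at an unadjusted p below 0.05. Without VitD3-DC replicate 2 the differences were -0.09, -0.29, 0.28 and 0.0898 in the same order, with edgeR FDR values of 0.602 to 0.93. TMM over all RNA classes, which moved the median of all rows by 0.49 in this comparison, gave 0.60 for miR-223-5p and 0.60 for miR-142a-3p, and scaling by the miRNA total, which moved it by -0.38, gave -0.41 for miR-142a-5p.

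Reads of miR-142a relative to miR-223 within a library need no scaling between libraries. The number of miR-142a reads per miR-223 read, over both strands, was 13.5, 14.9 and 12.9 in LPS-EV, against 5.66, 2.11 and 2.21 in VitD3-EV, with 7.69, 7.71 and 5.09 in control-EV. It was 12.1, 12.4 and 6.59 in LPS-DC, 5.55, 2.34 and 3.06 in VitD3-DC, and 3.27, 3.62 and 3.18 in control-DC. In each compartment the 3 LPS libraries lay above the other 6, and VitD3 overlapped control. This ratio was not tested on its own and repeats the levels above in another form.

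**Figure D3:**
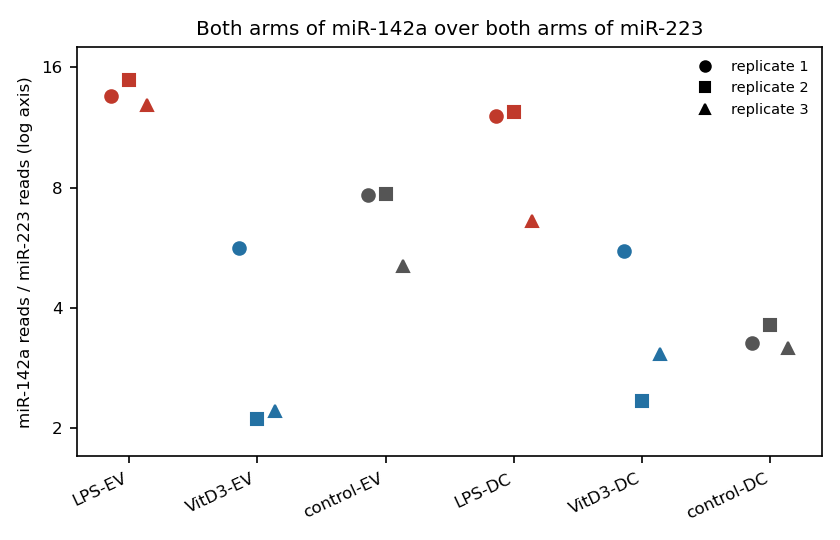
Reads of both miR-142a strands divided by reads of both miR-223 strands in every library, on a log axis, by group; symbols are replicate numbers. LPS-EV libraries lie between 12.9 and 14.9 and LPS-DC libraries between 6.59 and 12.4, above all VitD3 and control libraries of the same compartment.

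The 5p strand gave more reads than the 3p strand for miR-223 in 17 of 18 libraries. The ratio of 5p to 3p reads of miR-223 was 0.519 to 6.06 in LPS-EV, 6.04 to 16.5 in VitD3-EV and 3.21 to 15.9 in control-EV, and 2.72 to 12.4 in LPS-DC, 4.31 to 8.70 in VitD3-DC and 4.78 to 9.24 in control-DC. The exception was LPS-EV replicate 2, with 14 reads of miR-223-5p and 27 of miR-223-3p. There the 5p share was 34.1% with a 95% Wilson interval of 21.6% to 49.5%, against 67.5% in LPS-EV replicate 3 and 85.8% in LPS-EV replicate 1. Such intervals cover counting error only, since reads amplified by PCR are not independent molecules.

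For miR-142a the strands were closer, and 5p reads outnumbered 3p reads in all 9 EV libraries and in 7 of 9 DC libraries. The ratio was 1.06 to 3.70 in LPS-EV, 1.82 to 4.16 in VitD3-EV and 1.72 to 3.72 in control-EV, and 1.61 to 2.24 in LPS-DC, 0.868 to 1.74 in VitD3-DC and 0.916 to 1.48 in control-DC. The DC libraries with more 3p reads were VitD3-DC replicate 3 and control-DC replicate 2, so the order of the strands differed between replicates of a group.

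The 5p share of miR-142a was larger in EV than in the parent cells over the 9 pairs, with all pairs positive in VitD3 and control and a mean near 0 in LPS. The log2 ratio of 5p to 3p reads, with 0.5 added to each count, averaged 1.28 ± 0.67 in EV and 0.53 ± 0.44 in DC (SD, n = 9 libraries each). It was higher in EV in 8 of 9 pairs matched by treatment and replicate number, with a mean difference of 0.75 and single pairs between -0.60 and 2.02 (p = 0.0195, exact sign-flip test, two-sided, 0.0391 after adjustment over the 2 hairpins). The pair with a lower value in EV was replicate 2 of LPS. By condition, the difference between EV and DC averaged 0.06 ± 0.66 in LPS, 1.09 ± 0.14 in VitD3 and 1.11 ± 0.84 in control (SD, n = 3 pairs each), and whether it differed between conditions was not tested. With 1 replicate number left out the difference was 0.69 to 0.88 over 6 pairs. The adjusted p was 0.0625 without replicate 2, 0.125 without replicate 3 and 0.312 without replicate 1, and 6 pairs allow no unadjusted p below 0.0312. For miR-223 the log2 ratio averaged 2.28 ± 1.52 in EV and 2.51 ± 0.74 in DC (SD, n = 9 each), and the difference of -0.23 had an exact sign-flip p of 0.66, with 5 of 9 pairs higher in EV and averages of -1.34 ± 1.97 in LPS, 0.57 ± 1.20 in VitD3 and 0.08 ± 1.12 in control (SD, n = 3 pairs each). The 3 pairs of a replicate number were taken to come from the same experiment day, so the 9 pairs are not wholly independent.

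**Figure D4:**
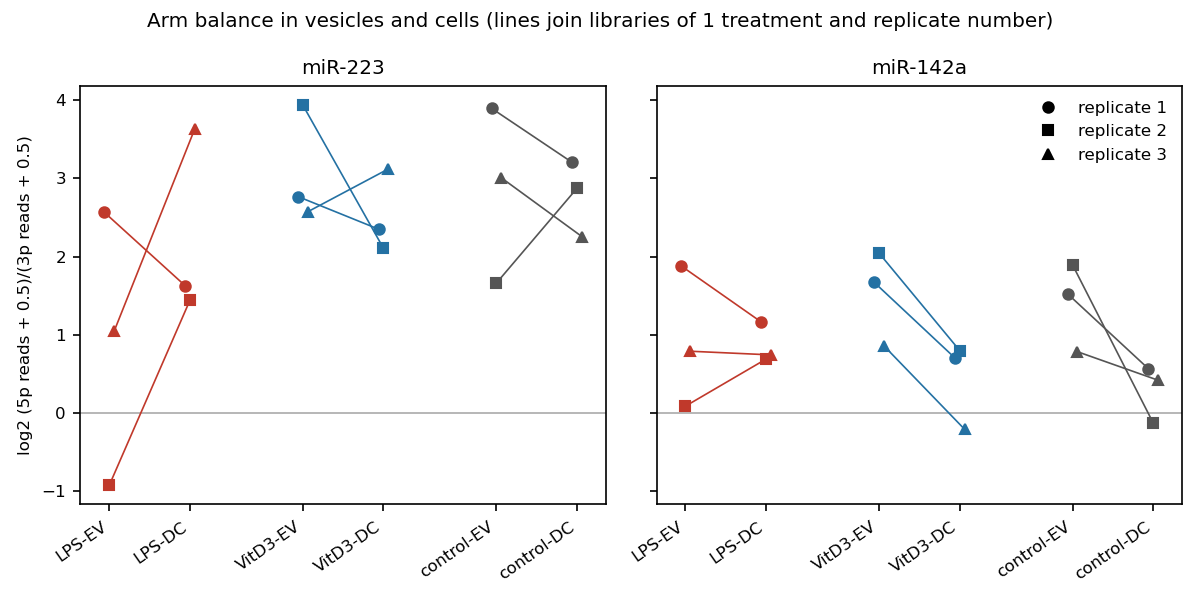
Log2 ratio of 5p to 3p reads of miR-223 (left) and miR-142a (right), with lines joining the EV and the DC library of the same treatment and replicate number. For miR-142a, 8 of 9 lines descend from EV to DC, and for miR-223 the lowest point is LPS-EV replicate 2 at -0.92.

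The strand ratio was also compared between conditions with exact permutation tests of 3 against 3 libraries, which cannot give a p below 0.1. Of 12 comparisons, 2 reached 0.1 (0.6 after adjustment over the 12). The log2 ratio of miR-223 averaged 0.90 ± 1.75 in LPS-EV against 3.09 ± 0.74 in VitD3-EV (SD, n = 3 each). It was lower in LPS-EV on all 3 days. These groups were separated only with the pseudocount, at 2.565 in LPS-EV replicate 1 and 2.572 in VitD3-EV replicate 3. Without the pseudocount the ratios of 5p to 3p reads overlapped, at 6.06 and 6.04 in the same libraries. The difference was not tested without the pseudocount. The log2 ratio of miR-142a averaged 0.87 ± 0.26 in LPS-DC and 0.29 ± 0.37 in control-DC (SD, n = 3 each), without overlap and higher in LPS-DC on all 3 days. In the other 10 comparisons the groups overlapped.

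The levels of the strands in EV were set beside those in the parent cells in a fit of all 18 libraries, in which 482 miRNA rows with 446 names were tested. On this common scale, miR-223-5p had 583, 655 and 811 CPM in control-EV and 1428, 1579 and 1078 CPM in control-DC. Each control-EV library lay below all control-DC libraries, and miR-223-5p fell by 1.02 on the log2 scale in control-EV against control-DC (SE 0.36, n = 3 each, FDR = 0.0475 by edgeR). This call was lost in 15 of 30 settings, among them scaling by the miRNA total (-0.30, edgeR FDR = 0.679), the likelihood ratio test (FDR = 0.063), DESeq2 (-0.79, FDR = 0.164) and the fit without the replicate block (edgeR FDR = 0.226), and without replicate 1 it was -0.90 (edgeR FDR = 0.275). It was lost as well without any single control-EV library, without control-DC replicate 1 or 2 and without VitD3-EV replicate 3, with edgeR FDR values of 0.0604 to 0.265.

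Between treated EV and their parent cells, 0 of the 4 strands were called by edgeR's quasi-likelihood test. miR-223-5p had 398, 234 and 312 CPM in LPS-EV and 442, 426 and 896 CPM in LPS-DC, a difference of -0.78 (SE 0.37, edgeR FDR = 0.201), and 663, 2329.7 and 1459 CPM in VitD3-EV and 790.4, 1509.99 and 1477 CPM in VitD3-DC, a difference of 0.19 (SE 0.36, edgeR FDR = 0.767). On the common scale, miR-142a-3p was lower in EV in 8 of 9 matched pairs. Its differences were 0.11 in LPS, -0.90 in VitD3 (SE 0.35, edgeR FDR = 0.0978) and -0.71 in control (SE 0.35, edgeR FDR = 0.193). By share of the miRNA reads it was higher in EV in LPS replicates 2 and 3, VitD3 replicate 2 and control replicate 3. Over the 30 settings its control difference ran from -1.07 to -0.0062. Scaling by the miRNA total moved the median row by 0.39 in LPS, 0.39 in VitD3 and 0.48 in control. The VitD3 difference of miR-142a-3p passed the threshold in 5 of 30 settings, at -1.14 without LPS-EV replicate 2 (edgeR FDR = 0.00624). Without VitD3-DC replicate 2, whose labelled run differs, it was -1.06 and also passed (edgeR FDR = 0.0174). miR-142a-5p was higher in EV in 8 of 9 pairs, with differences of 0.05 in LPS, 0.22 in VitD3 and 0.43 in control and edgeR FDR values of 0.48 to 0.955. By DESeq2 it was called in VitD3 (0.62, FDR = 0.0316) and in control (0.67, FDR = 0.0103), and scaling by the miRNA total also called it in control (1.16, edgeR FDR = 0.0185). Without control-DC replicate 3, miR-142a-3p was called in control (-1.06, edgeR FDR = 0.0399). miR-223-3p was higher in EV in 3 of 9 pairs, with differences of 0.45, -0.34 and -0.996 in LPS, VitD3 and control and edgeR FDR values of 0.14 to 0.715. Without replicate 2 it was called in control, at -1.58 (edgeR FDR = 0.00955). The share of all 482 rows called was 9.34% for LPS, 11% for VitD3 and 12.4% for control.

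A test of whether a treatment difference in EV differed from that in DC called none of the 4 strands. The largest was miR-223-3p for LPS against control, whose difference was 1.44 higher in EV than in DC (SE 0.62, unadjusted p = 0.0212, FDR = 0.569 by edgeR), followed by miR-223-5p for VitD3 against control at 1.21 (SE 0.51, unadjusted p = 0.0195, FDR = 0.409 by edgeR). Over all 482 rows, 0 passed for LPS against control, with 35 at an unadjusted p below 0.05, and 0 for LPS against VitD3, with 29. For VitD3 against control 3 rows passed, or 0.622%, which are 2 mature miRNAs. DESeq2 called 0 of the 4 strands in each of these tests.

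The order of the 6 groups on the common scale differed between the strands. By group mean, miR-223-5p ran from VitD3-EV over control-DC, VitD3-DC, control-EV and LPS-DC to LPS-EV, and only the last neighbours, LPS-DC and LPS-EV, had ranges that did not overlap. miR-142a-5p ran from LPS-EV over LPS-DC, control-EV, VitD3-EV and control-DC to VitD3-DC, and all neighbours overlapped. miR-142a-3p had LPS-EV and LPS-DC at the top and VitD3-EV at the bottom, and miR-223-3p had VitD3-DC at the top and control-EV at the bottom, also with overlap between all neighbours.

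The strands of a hairpin did not follow each other closely across libraries. Pearson's r of log2 CPM between miR-223-3p and miR-223-5p was -0.0447 over the 9 EV libraries and 0.511 over the 9 DC libraries, and between miR-142a-3p and miR-142a-5p it was 0.344 in EV and 0.0155 in DC. The EV value of miR-223 rests on 6 to 40 reads of miR-223-3p per library. At such counts a low r cannot show whether the strands varied apart. Between miR-223-5p and miR-142a-5p r was negative, at -0.881 in DC and a weaker -0.423 in EV. Between miR-223-5p and miR-142a-3p it was -0.694 in EV and 0.0674 in DC. Among 94 miRNAs with a mean of at least 100 CPM in both compartments, the pattern of miR-223-5p was closest to miR-27a-5p (r = 0.886 in EV and 0.821 in DC), followed by miR-16-1-3p and miR-221-5p. miR-142a-5p was closest to miR-29a-3p (r = 0.899 in EV and 0.862 in DC), then miR-147-3p and miR-674-3p. The neighbours of miR-223-3p were miR-23a-3p, miR-872-5p and miR-340-5p, with mean r of 0.565 to 0.661, and those of miR-142a-3p were miR-340-5p, miR-34a-5p and miR-9-3p, with mean r of 0.496 to 0.687. These values describe 9 libraries each that share treatments, experiment days and scaling.

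Of 21 other miRNAs known from blood cells, 16 were tested in EV and 18 in DC. Between LPS-EV and VitD3-EV 2 were higher and 4 lower, with a list median of -0.36 beside -0.06 over all rows. The higher ones were miR-155-5p, induced by Toll-like receptor signalling (2.93, SE 0.35, FDR = 3.06e-12 by edgeR), and miR-146a-5p, known to restrain it (2.15, SE 0.32). The 4 lower ones were miR-21a-5p, miR-181b-5p, miR-24-3p and miR-126a-3p, at -0.88, -1.26, -0.85 and -1.67. miR-126a-3p is also 1 of the 2 endothelial miRNAs above. Over all 281 rows, 6.41% were called higher and 8.19% lower. Against control-EV, LPS-EV had 2 of the list higher, miR-155-5p at 2.09 and miR-146a-5p at 1.31, and 0 lower, beside 1.42% and 0% of all rows. VitD3-EV had 1 higher than control-EV, miR-21a-5p at 1.03, and 0 lower, beside 4.98% and 2.14% of all rows. The list medians were -0.08 for LPS-EV and 0.21 for VitD3-EV, beside -0.03 over all rows in each.

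In the cells, 0 of the 18 blood cell miRNAs were called between LPS-DC and control-DC by edgeR's quasi-likelihood test, where miR-155-5p had 2.30 (SE 0.55, FDR = 0.0513 by edgeR), beside 0.219% called higher and 0.658% lower over all rows. Between VitD3-DC and control-DC 3 were higher, miR-511-5p at 3.15, miR-511-3p at 2.70 and miR-21a-5p at 1.40, beside 3.51% higher and 0.877% lower over all rows, with a list median of 0.73 beside 0.02. Between LPS-DC and VitD3-DC 1 was higher, miR-155-5p at 3.14, and 3 lower, miR-511-5p, miR-511-3p and miR-181b-5p, beside 1.75% and 5.26% of all rows, with a list median of -0.44 beside -0.03. The 4 strands of miR-223 and miR-142a are not in this list.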

How the data were processed

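The deposited table holds read counts per RNA, which the authors made from paired-end reads trimmed with cutadapt 1.8, aligned to mm10 with gsnap and counted by strand with HTSeq 0.6.1p1 on miRBase. These counts are not normalized. Of 6017 rows, the 2045 miRNA rows were used here, which carry 1907 names. A mature miRNA with several genomic copies has a row for each, reads of near-identical copies can be counted at several rows, and counts of calls are counts of rows.

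Counts were tested with edgeR 4.0.16 in R 4.3.3 (quasi-likelihood test, two-sided, TMM within the miRNA class, prior count 2), in the 9 EV, the 9 DC and all 18 libraries, on rows with at least 10 reads. p-values were adjusted by Benjamini-Hochberg over all rows of a fit. The study ran its replicates on different days and modelled the day, so the replicate number entered as a block. In a check of this pairing, residuals of same-numbered libraries correlated with r of 0.0818 to 0.689 in EV and 0.038 to 0.749 in DC, over 0.1 in 8 of 9 pairs of each. SE is the log2 fold change over the root of F. Strand ratios used a pseudocount of 0.5 and exact tests in scipy 1.17.1. Scripts were tested on simulated data. All replicate pairs differed beyond sampling noise.

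All 4 strands are named, with the 3 miRNAs most alike in pattern for each and every called miRNA of the blood cell list. Members and lists were chosen with earlier results of these data known. Alternatives were the likelihood ratio test, DESeq2 1.42.0, other scalings and filters, no block, and leaving out replicates or libraries.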

Additional observations from a re-analysis of the deposited data

How the results depend on the processing

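miR-223-5p in LPS-EV against VitD3-EV kept its direction and its call under all 21 alternatives, at -2.77 to -1.56. The other called differences kept their direction and lost the call in some, and the causes were not tested. All values are log2 differences or counts of called miRNA rows. Depth limits miR-223-3p most, with 6 to 40 reads in an EV library. Against TMM within the class, scaling by the miRNA total moved the median row to -0.28 in VitD3-EV against control-EV, to 0.19 in LPS-EV against VitD3-EV and to 0.42 in LPS-DC against VitD3-DC, where it was -0.03, -0.06 and -0.03, and TMM over all RNA classes moved it to 0.21 in LPS-EV against control-EV and to -0.43 in LPS-DC against VitD3-DC.

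Without the replicate block, 0 rows were called for LPS-EV against control-EV, 3 for VitD3-EV against control-EV, 7 for LPS-EV against VitD3-EV, 0 for LPS-DC and 0 for VitD3-DC against control-DC, 8 for LPS-DC against VitD3-DC, 15, 24 and 26 for EV against DC in LPS, VitD3 and control, and 0 for the difference of the VitD3 effect between EV and DC. In the same fit miR-223-5p was 1.05 in VitD3-EV against control-EV, -1.33 in LPS-DC against VitD3-DC and -0.99 in control-EV against control-DC, miR-142a-3p was 1.26 and miR-223-3p 0.34 in LPS-EV against VitD3-EV. Without the pairing the strand ratio of miR-142a in EV against DC stayed at 0.75 (p = 0.0135, exact permutation test). That test treats libraries of different treatments and days as exchangeable, which the design does not give.

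The likelihood ratio test called 21 rows for LPS-DC against control-DC, 55 for VitD3-DC against control-DC and 50 for LPS-DC against VitD3-DC, with miR-223-5p called in LPS-DC against control-DC (-1.39) and not in VitD3-EV against control-EV (0.98) or control-EV against control-DC (-1.02). DESeq2 called 12 for LPS-DC and 53 for VitD3-DC against control-DC, and 0 and 1 for the VitD3-control and LPS-VitD3 effects compared between EV and DC. DESeq2 gave miR-223-5p 1.09 in VitD3-EV against control-EV, -1.29 in LPS-DC against control-DC and -0.79 in control-EV against control-DC, miR-142a-5p 0.62 and 0.67 in EV against DC for VitD3 and control, miR-142a-3p 0.032 in LPS-DC against control-DC, and miR-223-3p 0.094 in VitD3-EV against VitD3-DC. DESeq2's size factors in edgeR called 0 for LPS-DC against control-DC and gave miR-142a-3p 0.032 there, miR-223-5p -1.17 in LPS-DC against VitD3-DC and -0.79 in control-EV against control-DC, and miR-223-3p 0.10 in VitD3-EV against VitD3-DC.

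Scaling by the miRNA total called 0 for LPS-DC against control-DC. It gave miR-223-5p 0.58 in VitD3-EV against control-EV, -0.70 in LPS-DC against VitD3-DC and -0.30 in control-EV against control-DC, miR-223-3p 0.30 in LPS-EV against VitD3-EV, -0.35 in VitD3-DC against control-DC and 0.30 in VitD3-EV against VitD3-DC, miR-142a-5p 0.86 in LPS-EV against VitD3-EV, -0.41 in VitD3-DC against control-DC and 1.16 in control-EV against control-DC, and miR-142a-3p 0.11 in LPS-DC against control-DC. TMM over all RNA classes called 8 and 11 for LPS-EV and VitD3-EV against control-EV, 54 for VitD3-DC against control-DC and 3 for the LPS effect compared between EV and DC. It gave miR-142a-3p 1.16 in LPS-EV against control-EV, past the threshold there, 0.0996 and 0.60 in LPS-DC and VitD3-DC against control-DC and -0.50 in LPS-DC against VitD3-DC, miR-223-5p 0.92 in VitD3-EV against control-EV, 0.60 in VitD3-DC against control-DC, -0.11 in VitD3-EV against VitD3-DC and -0.83 in control-EV against control-DC, miR-223-3p 0.27 and miR-142a-5p 0.84 in LPS-EV against VitD3-EV, and miR-142a-5p -0.012 in VitD3-EV against VitD3-DC and 0.61 for the LPS-VitD3 difference compared between EV and DC.

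With rows of at least 1 read, 16, 51 and 61 were called for LPS-DC against control-DC, VitD3-DC against control-DC and LPS-DC against VitD3-DC. miR-223-5p was 0.9975 in VitD3-EV against control-EV, -1.24 in LPS-DC against control-DC and -1.05 in control-EV against control-DC, miR-142a-3p 0.081 in LPS-DC against control-DC, and miR-142a-5p 0.0061 for the LPS-VitD3 difference compared between EV and DC. The filterByExpr filter called 11 for VitD3-EV against control-EV, 0 for LPS-DC against control-DC and 0 for the VitD3 effect compared between EV and DC, with miR-223-5p at 1.08 in VitD3-EV against control-EV, -1.21 in LPS-DC against VitD3-DC and -0.81 in control-EV against control-DC, and miR-142a-5p at -0.046 in VitD3-DC against control-DC. With 1 row per mature miRNA, 1 was called for the LPS-VitD3 difference compared between EV and DC, and miR-223-3p was 0.044 in LPS-EV against VitD3-EV, miR-142a-3p 0.069 in LPS-DC against control-DC and -0.98 in VitD3-EV against VitD3-DC, miR-142a-5p -0.031 in VitD3-DC against control-DC, and miR-223-5p -1.09 in LPS-DC against VitD3-DC.

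Leaving out a replicate number or a library, calls ranged from 1 to 9 for LPS-EV and 5 to 35 for VitD3-EV against control-EV, 17 to 43 for LPS-EV against VitD3-EV, 0 to 12 for LPS-DC and 0 to 26 for VitD3-DC against control-DC, 0 to 63 for LPS-DC against VitD3-DC, 10 to 53, 16 to 93 and 33 to 82 for EV against DC in LPS, VitD3 and control, and 0 to 3, 0 to 5 and 0 to 7 for the LPS-control, VitD3-control and LPS-VitD3 differences compared between EV and DC. miR-223-5p ranged from -1.62 to -0.74 in LPS-EV, with 0.57 to 1.42 for VitD3-EV, against control-EV, -1.79 to -1.05 in LPS-DC and -0.47 to 0.26 in VitD3-DC against control-DC, -1.63 to -0.93 in LPS-DC against VitD3-DC, -0.31 to 0.53 and -1.38 to -0.82 for EV against DC in VitD3 and control, and -0.26 to 1.05 for the LPS effect between EV and DC. miR-223-3p ranged from -0.69 to 0.45 in LPS-EV against VitD3-EV, -0.18 to 0.54 in VitD3-DC against control-DC, -1.30 to -0.62 in LPS-DC against VitD3-DC, -0.19 to 1.27 and -1.58 to -0.67 for EV against DC in LPS and control, and -0.12 to 1.64 for the LPS-VitD3 difference between EV and DC. miR-142a-3p ranged from 0.42 to 1.41 in LPS-EV against VitD3-EV, -0.55 to 0.025 in VitD3-EV against control-EV, -0.30 to 0.24 in LPS-DC and -0.61 to 0.34 in VitD3-DC against control-DC, -0.33 to 0.44 in LPS-DC against VitD3-DC, -0.41 to 0.43, -1.15 to -0.65 and -1.07 to -0.45 for EV against DC in LPS, VitD3 and control, and -0.45 to 0.37 for the VitD3 effect between EV and DC. miR-142a-5p ranged from -0.0074 to 0.45 in LPS-EV against control-EV, -0.081 to 0.0898 in VitD3-DC against control-DC, -0.00901 to 0.24 and -0.029 to 0.41 for EV against DC in LPS and VitD3, and -0.41 to 0.0297 and -0.33 to 0.16 for the VitD3-control and LPS-VitD3 differences between EV and DC. The log2 strand ratio of miR-223 differed by -0.78 to 0.92 in VitD3-EV against control-EV, -0.81 to 0.048 in VitD3-DC against control-DC and -0.69 to 0.0497 in EV against DC, and that of miR-142a by -0.90 to 0.18 in LPS-EV against control-EV, -1.01 to 0.073 in LPS-EV against VitD3-EV, -0.24 to 0.53 in VitD3-DC against control-DC and 0.69 to 0.88 in EV against DC.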
